A study of Mus musculus with 12 samples.

Results

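Mouse embryonic fibroblasts were reprogrammed in the presence of either of a pair of microRNA clusters, named B and C in the labels, and the arrays with cluster C were set against those with cluster B. The comparison takes the 4 arrays titled with SKO and a cluster, out of 12 in the series. It holds 1 array with cluster C and 1 with cluster B at day 4, and the same at day 8, paired by day, 2 against 2. The other arrays carry no SKO or a blank virus. Of these, the 4 with a cluster and no SKO are used beside the comparison, and the 4 with blank virus play no part in it.

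The cells of all groups were fibroblasts of OG2 mice crossed to 129/sv, per the labels. OG2 mice carry a green fluorescent reporter of Oct4 activity. The cells were infected by retrovirus with a microRNA cluster, either together with SKO, in the arm that the labels place in the iPS process, or without it. SKO is taken here as Sox2, Klf4 and Oct4, which Pou5f1 encodes, although the letters are not spelled out. Days are counted from the first of a pair of infections, and cells were kept in medium for embryonic stem cells. Feeder cells were taken out before RNA was extracted, and 100 ng of total RNA was labelled with biotin for whole-transcript arrays. The 2 arms are also separate infection groups in the labels, so SKO and that grouping cannot be told apart. The free-text description shared by the arrays names a pre-iPSC line, which goes against their other labels. Virus-infected pools can hold infected and uninfected cells, and nothing says that the arrays came from separate cultures, so p-values measure the spread between these arrays alone.

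MicroRNAs are short RNAs that repress messenger RNAs that pair with their seed, bases 2 to 8 of the mature strand. The miR-302 to miR-367 group is known from embryonic stem cells. The miR-106a to miR-363 group on the X chromosome is a relative of the miR-17 to miR-92 group, known from proliferating cells and tumours. In reprogramming, fibroblasts are known to lose mesenchymal features and gain epithelial ones before the pluripotency network turns on, and microRNAs of both groups have been reported to help that passage, among other ways by repressing the TGF-beta receptor gene Tgfbr2.

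The labels do not say which microRNAs each cluster holds. Probe sets of 5 microRNA genes within 580 bases of chromosome 3 were high with cluster C, and those of 5 genes of a group spanning 875 bases of the X chromosome were higher with cluster B. The mature sequences below, from RefSeq (GRCm38.p6), are shown because their seeds separate the clusters in part and join them in part. Seeds are in capitals. On chromosome 3, high with cluster C:
miR-302b-3p: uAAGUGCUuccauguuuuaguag
miR-302c-3p: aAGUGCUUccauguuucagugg
miR-302d-3p: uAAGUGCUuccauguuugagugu
miR-367-3p: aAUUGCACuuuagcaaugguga
On the X chromosome, higher with cluster B than with cluster C (the gene of miR-18b is not among the genes measured here):
miR-106a-5p: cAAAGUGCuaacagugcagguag
miR-18b-5p: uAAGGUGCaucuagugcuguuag
miR-20b-5p: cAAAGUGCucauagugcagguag
miR-19b-3p: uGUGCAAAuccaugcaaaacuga
miR-92a-3p: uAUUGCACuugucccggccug
miR-363-3p: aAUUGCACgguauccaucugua
The entry for miR-302c-3p starts 1 base later than those of miR-302b and miR-302d, so its capitals are shifted by 1 base. The seed AAGUGCU of miR-302b and miR-302d and the seed AAAGUGC of miR-106a and miR-20b share the run AAGUGC, shifted by 1 base. The seed AUUGCAC is the same in miR-367 of the chromosome 3 group and in miR-92a and miR-363 of the X-linked group. The seeds of miR-18b and miR-19b appear only in the X-linked group among these sequences. The microRNA genes lie at chr3:127545228-127545807 (5 genes, plus strand) and chrX:52741693-52742567 (6 genes, minus strand).

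The genes of the chromosome 3 group differed most between the clusters in the mean over days. Values are log2 levels as deposited, and a difference of 1 is 2-fold. Mir302b was at 1.68 (day 4) and 2.32 (day 8) with cluster B and at 7.08 and 7.15 with cluster C, a mean difference over days of 5.12 ± 0.48 (SE from limma). Mir302d went from 2.19 and 2.85 with cluster B to 6.02 and 6.53 with cluster C. Mir302c went from 1.70 and 3.08 to 5.74 and 6.38. All 3 were far apart between the clusters on both days, with no overlap, and how many of all genes did not overlap was not counted. Mir302a was at 1.83 and 2.55 with cluster B and at 5.11 and 6.19 with cluster C, a difference of 3.46 ± 0.34. Mir367, the member with another seed, was at 1.29 and 1.62 with cluster B and at 4.01 and 4.81 with cluster C, a difference of 2.95 ± 0.25. Each of the 5 was higher with cluster C at day 8 than at day 4, by between 0.07 (Mir302b) and 1.09 (Mir302a). The cluster B levels of these genes lie below the lower quartile of the arrays (3.48 to 3.61), close to background, so the differences are lower bounds.

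**Figure D1:**
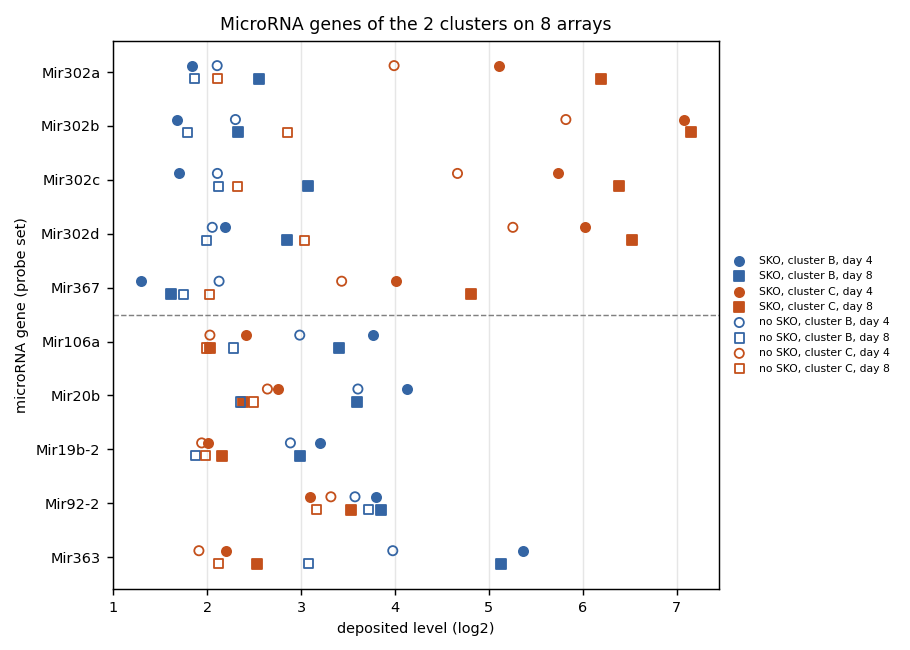
Deposited log2 levels of 10 microRNA genes on 8 arrays; colour gives the cluster, shape the day, and filled symbols the arrays with SKO. Filled symbols of cluster C lie right of all others for the 5 genes above the dashed line (chromosome 3), and for each of the 5 below it (X chromosome) the symbol furthest right is a filled one of cluster B.

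The X-linked genes ran the other way. With cluster C, Mir363, Mir106a, Mir20b and Mir19b-2 lay below the lower quartile, so their differences are bounds too and are not ranked against those of chromosome 3. With cluster B, Mir19b-2 on both days and Mir106a at day 8 also lay below it, and Mir20b at day 8 lay within its range (3.48 to 3.61). The differences of these genes are therefore less certain in size than that of Mir363. Mir363 was at 5.36 and 5.13 with cluster B and at 2.20 and 2.53 with cluster C, a difference of -2.88 ± 0.26. Mir106a was at 3.77 and 3.40 against 2.41 and 2.03 (-1.37 ± 0.18), and Mir20b at 4.12 and 3.60 against 2.75 and 2.38 (-1.29 ± 0.24). Neither gene overlapped between the clusters, again with no count over all genes. Mir19b-2 was at 3.20 and 2.99 against 2.0 and 2.16 (-1.01 ± 0.25). Mir92-2 separated least, at 3.80 and 3.85 against 3.10 and 3.53. With cluster B these genes lay lower on the array scale than the chromosome 3 genes did with cluster C, but levels of different probe sets cannot be compared, and whether the probe sets read mature microRNAs, longer transcripts or viral RNA is not known here.

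In the fit over the 8 arrays with a cluster, limma called 0 of 19938 genes at a Benjamini-Hochberg adjusted p under 0.05 (0%), with 985 at an unadjusted p under 0.05. The 4 lowest adjusted p values, all 0.0571 by limma, belonged to Mir367, Mir363, Mir302b and Mir302a, followed by Mir302d (0.117), Mir302c (0.258) and Mir106a (0.277). A fit of the 4 arrays alone called 6 genes (0.0301% of those tested), namely Mir302a, Mir302b, Mir302c, Mir302d, Mir367 and Mir363, and a fit of all 12 arrays called 4 (0.0201%), which were Mir302a, Mir302b, Mir367 and Mir363. No gene outside the microRNA groups was called in any of these 3 fits. The spread in them is the amount by which a cluster difference varied between days, so a difference present on 1 day counts as error. A fit of the change from day 4 to day 8 in the cluster difference leaves 1 array for each cluster and day with SKO. Its residual spread comes from the arrays without SKO alone, so it cannot decide which genes changed.

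Without SKO, the microRNA genes separated the clusters mainly at day 4. Mir302b was at 5.82 with cluster C and 2.30 with cluster B at day 4, and at 2.86 and 1.79 at day 8. Mir302d was at 5.25 against 2.05 at day 4 and at 3.03 against 1.99 at day 8. Mir363 was at 3.98 with cluster B and 1.91 with cluster C at day 4, and at 3.08 and 2.12 at day 8. In the cluster where each was higher, these 3 genes were thus lower at day 8 than at day 4 without SKO. With SKO, Mir302b and Mir302d were not lower at day 8, and Mir363 was at 5.36 and then 5.13. limma called 0 genes in the cluster difference without SKO (1148 at an unadjusted p under 0.05) and 0 in the difference between the arms (1377 at an unadjusted p under 0.05).

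MicroRNA genes of related groups outside these loci differed between the clusters in part. Mir17, Mir106b, Mir93, Mir32 and Mir92b differed by at most 0.26 on either day. Mir17hg, the host gene of the miR-17 to miR-92 group, was at 4.71 with cluster B and 4.43 with cluster C at day 4 and at 3.81 and 5.14 at day 8. Mir18 was at 4.82 and 4.97 at day 4 and at 4.57 and 5.77 at day 8. Mir19b-1 was lower with cluster C at day 4 (4.81 against 3.99) and close at day 8 (4.67 against 4.78). Over the 11 measured genes the median difference was -0.02 at day 4 and 0.11 at day 8.

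The delivered factors checked the labels. Pou5f1 was at 12.002 and 11.87 with cluster B and at 11.93 and 11.60 with cluster C, against 3.35 to 4.56 on the 4 arrays with a cluster and no SKO. Klf4 was at 8.68 and 8.91 with cluster B and at 8.67 and 8.63 with cluster C. Neither factor separated the clusters (-0.17 ± 0.14 and -0.14 ± 0.15). Myc, which is not part of SKO, was at 8.37 and 7.98 against 8.28 and 8.05. Sox2 was close at day 4 (5.43 against 5.34) and higher with cluster C at day 8 (6.04 against 7.55), which sets 1 array against 1. Whether the Sox2 probe set reads the delivered gene, the cells' own gene or both is not known here.

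Outside the microRNAs, few genes differed by a similar amount on both days. The 2 days' differences had a Pearson r of -0.014 over 19928 genes other than the microRNA genes above, and 49.5% of genes had the same sign on both. Genes are not independent replicates, and those of a day share the same pair of arrays. Genes named here were ranked by the smaller of their day 4 and day 8 differences, so the agreement of the days is part of the choice and not a result. All of them missed the threshold, with adjusted p values by limma of 0.694 for Tomm5 and 0.947 for the rest.

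On the higher side, Nr0b1, a nuclear receptor without known ligand that embryonic stem cells express, was at 4.39 and 4.54 with cluster B and at 5.22 and 7.35 with cluster C, a difference of 1.82 ± 0.39. Tdgf1, which encodes Cripto, a partner of Nodal in pluripotent cells, was at 3.13 and 6.18 against 3.82 and 9.37. Both were apart by less than 1 log2 unit at day 4 and by about 3 at day 8. A second kind of gene differed evenly: Akirin1, a nuclear protein gene, was at 6.16 and 5.98 with cluster B and at 6.82 and 6.81 with cluster C (0.75 ± 0.14). Fcf1, a factor of ribosomal RNA processing, was at 5.39 and 5.55 against 6.20 and 6.12. Ormdl2, a regulator of sphingolipid synthesis, was at 5.70 and 5.63 against 6.25 and 6.16. In these 3 genes both arrays with cluster C lay above both with cluster B, which the way they were chosen favours. How many of all genes did so was not counted. The tight junction gene Cldn4 (4.81 and 6.14 against 5.30 and 7.24) and the desmosome gene Pkp2 (4.89 and 5.26 against 5.38 and 6.09) were higher with cluster C on both days and higher at day 8 than at day 4 with either cluster. The histone gene H2bc9 was at 5.76 and 4.47 against 6.24 and 6.07.

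On the lower side, Tomm5, a small subunit of the mitochondrial import pore, stood first, at 5.99 and 6.35 with cluster B and at 4.68 and 5.22 with cluster C (-1.22 ± 0.19). Without SKO it ran the other way, at 4.77 and 5.90 with cluster B and 5.82 and 6.25 with cluster C. With a mean-variance trend and robust shrinkage, limma called Tomm5 both in the comparison (adjusted p = 0.0372) and in the difference between the arms (adjusted p = 0.0428), and no fit without that setting called it. Hdhd3 was at 5.46 and 5.36 against 4.66 and 4.71. Tpm2, the tropomyosin of contractile fibroblasts, was at 7.43 and 7.31 against 6.97 and 6.85, and the positional gene Hoxd4 at 5.27 and 5.48 against 4.76 and 4.99. The remaining 8, Angptl7, Akr1b8, Cadm3, Taf9b, Rtkn, Ptpdc1, St3gal4 and Arhgef26, differed by between -0.61 (Angptl7) and -0.47 (Arhgef26). In the separate arrays without SKO, 3 of the 8 higher genes outside the microRNAs and 2 of the 12 lower ones had the same sign. Over all genes above the median level outside the microRNAs, 41.9% had the same sign in both arms. The medians of the named genes were -0.13 and 0.11 without SKO against 0.77 and -0.57 with SKO, the arm in which they were chosen. That difference between the arms was tested for each gene and passed for none in the fit of 8 arrays.

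**Figure D2:**
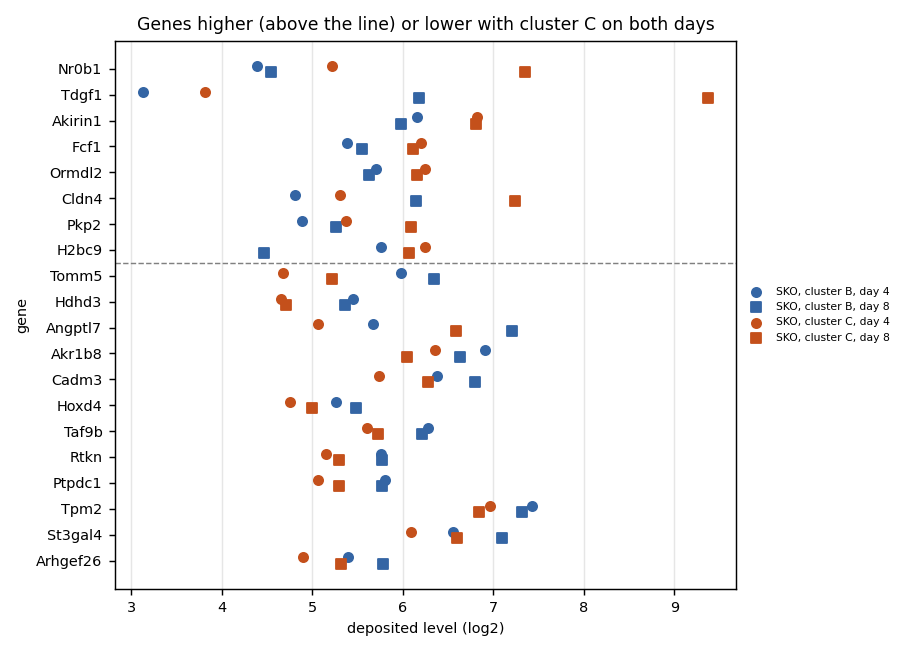
Deposited log2 levels on the 4 arrays with SKO of 20 genes chosen for the same sign at day 4 (circles) and day 8 (squares); blue is cluster B and orange cluster C. Tomm5 and Akirin1 show cluster gaps of similar width on both days, whereas the gap of Tdgf1 and Nr0b1 widens at day 8.

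Single days were described without a test, as 1 array against 1. At day 8, 61 genes were higher with cluster C by over 2-fold (0.306% of genes tested) and 13 lower (0.0652%). At day 4, 75 were higher (0.376%) and 26 lower (0.13%). With dim genes filtered out, the counts in both directions together were 24 at day 8 and 20 at day 4, so most of these genes were dim. At day 8 the named genes on the higher side were, after the microRNAs, largely genes of pluripotent cells. Dppa5a, an RNA-binding protein of embryonic stem cells, was at 3.48 and 3.30 with clusters B and C at day 4 and at 6.82 and 10.22 at day 8. Dppa2, a chromatin factor of early embryos, was at 2.89 and 2.91 at day 4 and at 3.04 and 5.37 at day 8. Bex1 was at 3.55 against 5.90 at day 8 and Fam169a at 3.36 against 5.57. All 4 were close at day 4, by at most 0.36. Dppa5a was higher at day 8 than at day 4 with either cluster, while Dppa2, Bex1 and Fam169a stayed at 3.04 to 3.55 with cluster B.

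Lower with cluster C at day 8 were Msl3l2 (5.45 with cluster B against 4.00), the class I histocompatibility gene H2-Q5 (5.48 against 4.20), Fam180a (5.87 against 4.69), Tomm5, Ccdc190 (5.53 against 4.53), H2aw (6.18 against 5.26), Zfp784 (6.09 against 5.20), the interferon-induced Ifit3 (6.23 against 5.35), the circadian repressor gene Ciart (5.43 against 4.56) and Clec3b (7.75 against 6.89). Of these 10, 6 lay higher with cluster C at day 4, Ciart the furthest at 4.57 against 5.34. At day 4 the class I gene H2-T10 (4.25 against 5.49) and Rtp4, an interferon-induced chaperone gene (6.83 against 7.90), were higher with cluster C. After Mir363 and Tomm5, Cebpzos (5.69 against 4.09), Gkap1 (6.40 against 5.14) and the cadherin gene Cdh10 (5.40 against 4.35) were lower. At day 8 the differences of H2-T10, Rtp4, Cebpzos, Gkap1 and Cdh10 lay between -0.29 and 0.08, so these differences did not recur.

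Gene lists were read by their counts and medians beside the same over all genes, with no test. The lists were written with earlier results of these data known, so these shares are descriptions and not independent support. Over all 19938 genes, 23.1% lay above 0 on both days and 26.4% below 0 on both, and the medians were 0.00 at day 4 and -0.02 at day 8. The day 4 arrays also differed by level: the median difference was 0.16 over the 4985 dimmest genes and -0.08 over the 4985 brightest, against -0.01 in both at day 8. Lists of dim genes therefore sit higher, and lists of bright genes lower, at day 4 with no difference of their own, and counts for members above the median level are given below for the lists of identity, signalling and targets.

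Pluripotency genes that were not delivered had the highest median of the lists at day 8, though not at day 4. Of 45 measured, 33 lay above 0 on both days (73.3%) and 1 below on both (2.22%), with medians of 0.13 at day 4 and 0.57 at day 8. limma called 0 of them over all genes, and 20 had an unadjusted p under 0.05, all higher with cluster C, beside 595 of all 19938 genes. Because earlier results were known when the list was written, its shares are not independent of these values. Among the 22 members above the median level, 17 lay above 0 on both days, with medians of 0.12 and 0.47, where 15.8% of all genes that bright did so. Past 2-fold were 14 at day 8 (against 0.306% of all genes) and 0 at day 4. In such bulk samples, fewer cells with the network on and less RNA per cell cannot be told apart.

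Within the list the day 8 array of cluster C carried the range. Beside Tdgf1, Nr0b1, Dppa5a and Dppa2, which stood highest, several genes were chosen for naming after their values were seen. Nanog, a core factor of the network, was at 5.33 and 5.37 with clusters B and C at day 4 and at 6.39 and 8.08 at day 8. Dnmt3l, a cofactor of DNA methylation, was at 3.33 and 3.62 at day 4 and at 3.51 and 5.34 at day 8. Esrrb, a nuclear receptor of naive cells, was at 3.61 and 3.85 and at 3.80 and 5.28. Each was within 0.30 at day 4 and past 1 log2 unit at day 8. Sall4 (4.75 against 6.24 at day 8), Utf1 (4.53 against 5.96), Dnmt3b (4.67 against 5.98) and Dppa4 (4.31 against 5.44) followed the same order. Not all members differed in that way. Tbx3 (5.95 against 5.92 at day 8), Tet2 (6.02 against 6.24) and Zfp42 (4.89 against 5.17) were close, Zfp42 was lower with cluster C at day 4 (4.09 against 3.36), and Fut4 was lower at day 8 (3.41 against 2.91). Without SKO the list had medians of -0.16 at day 4 and -0.05 at day 8, with 9 genes above and 19 below 0 on both days. Over its 22 members above the median level, the medians without SKO were -0.0034 and 0.0389. From day 4 to day 8 the cluster difference changed by 3.58 for Dppa5a, 2.50 for Tdgf1 and 1.97 for Nr0b1. Each change rests on 1 array per cluster and day. The residual spread in its fit comes from the arrays without SKO alone, where these genes lay between 3.54 and 4.35. That fit therefore cannot decide whether they changed with SKO.

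**Figure D3:**
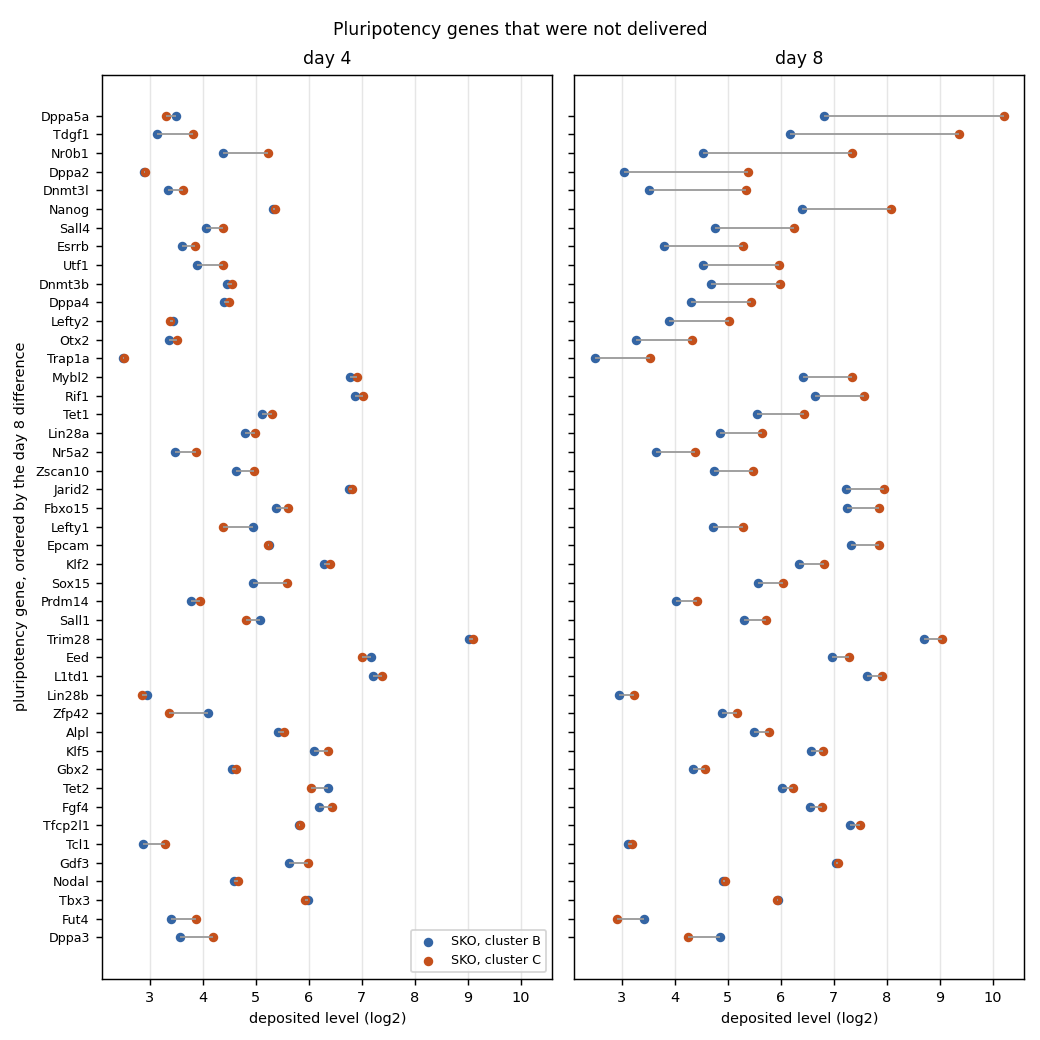
Deposited log2 levels of the 45 measured pluripotency genes that were not delivered, with SKO and cluster B (blue) or cluster C (orange), at day 4 (left) and day 8 (right), ordered by the day 8 difference. At day 8 the orange points lie to the right in 42 of 45 genes and by over 1 log2 unit in 14, and at day 4 the pairs nearly coincide or differ by less than 1.

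Genes of germ cells and cleavage-stage embryos had medians of 0.15 at day 4 and 0.25 at day 8 over 27 members, of which 1 alone was above the median level of all genes. Zfp600 was at 1.36 with cluster B and 3.86 with cluster C at day 8, Zfp640 at 1.88 and 4.17, and Tdrd12, a gene of the piRNA pathway, at 3.35 and 5.08. Tcstv3 was higher at day 4 (2.17 against 3.21). At the low end, the germ cell helicase gene Ddx4 was at 3.65 and 3.57 with cluster B and at 3.40 and 3.31 with cluster C. The cluster B levels of all 5 genes lie about the arrays' lower quartile or below it.

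Epithelial adhesion and tight junction genes were higher with cluster C in part. Of 48 measured, 24 lay above 0 on both days (50%) and 6 below (12.5%), with medians of 0.07 and 0.21, and 11 had an unadjusted p under 0.05, all higher, beside 595 of 19938 over all genes. Among the 24 above the median level, 10 lay above 0 on both days and 6 below, with medians of 0.01 and 0.16. Ap1m2, an epithelial adaptor of protein sorting, was at 3.50 and 4.40 with cluster B and at 4.08 and 5.40 with cluster C. Krt18, a keratin of simple epithelia, was at 4.64 and 6.16 against 4.74 and 7.40. Cldn4 and Pkp2, given above, complete the highest 4. Cdh1, the epithelial cadherin, chosen after its values were seen, was at 5.27 and 6.62 against 5.72 and 7.19 (0.51 ± 0.14, adjusted p = 0.947 by limma). Lowest in the list were the hemidesmosome genes Itgb4 (8.69 and 8.50 against 8.32 and 8.40) and Lama3 (5.39 and 6.38 against 5.22 and 6.26), the epithelial factor Ehf (5.82 and 7.25 against 5.74 and 7.04) and Cldn1 (5.77 and 5.84 against 5.49 and 5.84), which were level or lower with cluster C. Keratinocyte and cornified envelope genes had medians of 0.17 at day 4 and 0.04 at day 8 over 35 members, and -0.22 and 0.30 over the 8 above the median level. Their ends were Sfn (5.77 and 6.53 against 5.95 and 7.36) and Lce3f (3.22 and 2.92 against 1.68 and 2.55).

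Fibroblast genes lay lower with cluster C, by small amounts and on both days. Of 39 collagen and extracellular matrix genes, 28 lay below 0 on both days (71.8%) and 1 above (2.56%), with medians of -0.13 at day 4 and -0.24 at day 8. All but 1 were above the median level, where 34.6% of all genes lay below 0 on both days with medians of -0.08 and -0.02. limma called 0 of them, and 4 had an unadjusted p under 0.05, all lower, beside 390 of 19938 over all genes. The proteoglycan gene Ogn was at 7.38 and 8.57 with cluster B and at 7.03 and 7.94 with cluster C, the largest difference of the list (-0.49 ± 0.15). Fmod was at 7.17 and 7.96 against 6.71 and 7.62, Postn at 8.12 and 8.99 against 7.76 and 8.61, and Col11a1 at 7.70 and 7.67 against 7.42 and 7.30. The basement membrane collagen gene Col4a1 (8.05 and 8.22 against 8.07 and 8.20) and Fbln1 (7.11 and 6.83 against 7.05 and 6.83) were level. Mfap4 (4.57 and 5.32 against 5.0 and 5.45) was the one member higher on both days. Without SKO the medians were 0.04 and 0.12, and 24 of the genes lay above 0 on both days and 0 below.

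The mesenchymal and fibroblast list ran alike, with 32 of 44 below 0 on both days (72.7%), 1 above, and medians of -0.11 and -0.20. Among the 41 above the median level, 31 lay below 0 on both days (75.6%, against 34.6% of all genes that bright), with medians of -0.12 and -0.21. Tpm2 was lowest. Zeb1, a repressor of epithelial genes, was at 7.73 with cluster B and 7.03 with cluster C at day 4 and at 7.53 and 7.38 at day 8. Meox2 was at 7.76 and 7.64 at day 4 and at 7.89 and 7.18 at day 8, and Tagln, an actin-binding protein of contractile cells, at 8.09 and 8.07 with cluster B against 7.69 and 7.76. The intermediate filament gene Vim (11.79 and 11.79 against 11.93 and 11.70) and the surface marker Thy1 (8.58 and 8.60 against 8.48 and 8.54) were close, so the cells of all 4 arrays carried fibroblast markers at high level. Without SKO, 18 genes lay above 0 on both days and 8 below, with medians of 0.12 and 0.01.

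**Figure D4:**
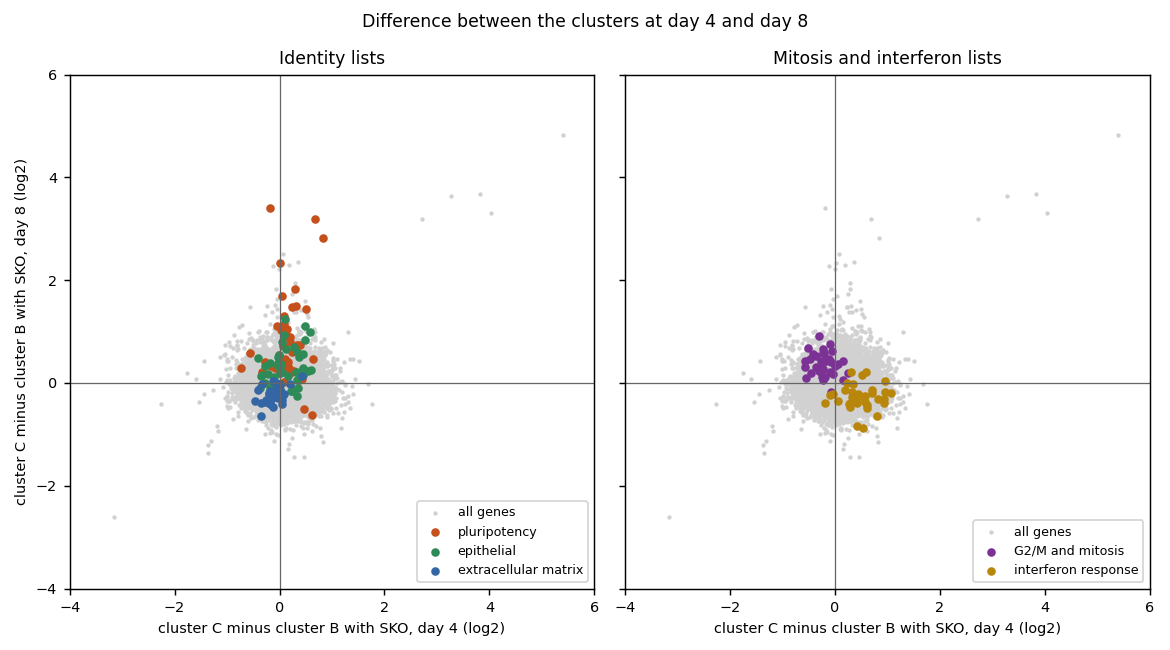
Each point is a gene, placed by its log2 difference between cluster C and cluster B with SKO at day 4 (horizontal) and day 8 (vertical). Pluripotency genes (left, orange) spread upward along the day 8 axis, matrix genes (blue) gather low and left, G2/M genes (right, violet) lie upper left and interferon genes (gold) lower right; the 5 grey points at upper right are Mir302a to Mir302d and Mir367. Epithelial genes are green.

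The TGF-beta and BMP list, which fibroblasts are known to use to keep their mesenchymal state, had 19 of 40 genes below 0 on both days (47.5%) and 7 above (17.5%), with medians of -0.02 and -0.17. Among the 34 above the median level, 17 lay below 0 on both days (50%, against 34.6%), with medians of -0.03 and -0.18. All genes that bright had medians of -0.08 and -0.02, so at day 4 the median of this list was not below theirs. By role, the ligand genes split. Tgfb2 (6.71 and 6.38 with cluster B against 6.38 and 5.87), Tgfb3 (7.0 and 6.69 against 6.71 and 6.40) and Bmp4 (6.60 and 6.56 against 6.32 and 6.30) were lower with cluster C on both days. Bmp2 was higher (4.43 and 4.96 against 4.80 and 5.66). Of the receptor genes, Tgfbr2 was at 8.11 and 8.19 with cluster B and at 7.92 and 8.04 with cluster C (-0.16 ± 0.15), Tgfbr1 at 7.22 and 7.38 against 7.22 and 7.52, and Bmpr1b at 4.47 and 3.97 against 4.77 and 4.13. Among mediators and targets, Smad9 was at 4.96 and 5.63 against 4.23 and 5.35, the inhibitor gene Smad7 at 6.69 and 6.92 against 6.78 and 7.10, and Id2, a target of BMP signals, at 6.90 and 7.57 against 7.57 and 7.91. Id2 was also higher with cluster C without SKO (6.34 and 7.41 against 7.19 and 8.24). None passed the threshold.

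Genes reported elsewhere as microRNA targets were grouped by the seeds printed above. Of 34 measured targets of AAGUGC seeds, which both clusters carry in shifted form, 20 lay below 0 on both days (58.8%) and 2 above (5.88%), with medians of -0.15 at day 4 and -0.08 at day 8. Of 30 above the median level 19 lay below on both days (63.3%, against 34.6% of all genes that bright). Irf2, an interferon regulatory factor gene, was at 6.77 and 6.22 with cluster B and at 6.14 and 5.79 with cluster C (-0.53 ± 0.15), and the retinoblastoma relative Rbl2 at 7.10 and 6.87 against 6.60 and 6.47. Irf2 and Rbl2 were named because they were lowest in the list. Mapk14 (7.72 and 7.60 against 7.43 and 7.32) and Akt1 (9.14 and 9.13 against 8.93 and 8.77) followed. At the other end were Lefty2, a Nodal inhibitor that is also in the pluripotency list (3.43 and 3.90 against 3.37 and 5.01), the demethylase gene Kdm1a (7.95 and 7.69 against 8.06 and 7.80) and Rb1 (8.58 and 7.98 against 8.70 and 8.07). Without SKO the medians were 0.02 and 0.03.

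Targets of the seed AUUGCAC, identical in both groups, and targets of the miR-18 and miR-19 seeds, found in the X-linked group alone, had like medians. For AUUGCAC they were -0.10 and -0.12, with 12 of 21 below 0 on both days (57.1%) and 3 above. Among the 18 above the median level 10 lay below 0 on both days (55.6%, against 34.6% of all genes that bright). The medians of those 18 were -0.09 and -0.08, and the day 4 one was near the -0.08 of all genes that bright. Kat2b was at 6.48 and 6.70 with cluster B and at 5.88 and 6.58 with cluster C, and Mylip at 6.68 and 7.34 against 6.18 and 7.18, while the phosphatase gene Dusp5 was higher (6.06 and 6.21 against 6.43 and 6.46). For the miR-18 and miR-19 seeds the medians were -0.06 and -0.12, with 12 of 20 below 0 on both days (60%) and 3 above, and among the 18 above the median level 11 lay below 0 on both days (61.1%, against 34.6% of all genes that bright). The medians of all genes that bright were -0.08 and -0.02, so the day 4 median of this list was not below theirs. Irf2, which is in this list too, Smad2 (7.33 and 7.01 against 7.14 and 6.81) and Esr1 (4.82 and 5.04 against 4.53 and 4.96) were lowest, and Mycn was highest (4.50 and 4.85 against 4.78 and 5.71). The difference between these 3 lists was not tested, and 3' untranslated sequences were not used here.

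Proliferation genes lay on opposite sides on the 2 days. At day 4, 32 of 37 G2/M and mitosis genes and 32 of 39 G1/S and replication genes were lower with cluster C (medians -0.23 and -0.10), and at day 8, 36 and 34 were higher (0.37 and 0.28). Over all 19938 genes, 9957 were lower at day 4 and 9287 higher at day 8. All 37 G2/M genes and 38 of the 39 G1/S genes were above the median level. All genes that bright had medians of -0.08 at day 4 and -0.02 at day 8, so the day 4 median of the G1/S list was near theirs. Bub1, a spindle checkpoint kinase gene, was at 7.80 and 7.48 with clusters B and C at day 4 and at 6.68 and 7.59 at day 8. Top2a was at 9.41 and 9.18 at day 4 and at 8.55 and 9.20 at day 8. With cluster B both genes were lower at day 8 than at day 4, and with cluster C they were nearly level. The replication origin gene Orc1 was at 5.08 and 4.72 at day 4 and at 4.32 and 5.21 at day 8, and the proliferation marker gene Mki67 at 8.86 and 8.28 and at 7.79 and 8.10. limma called 0 genes of either list and 0 had an unadjusted p under 0.05 for the mean over days. Without SKO the medians lay between -0.05 and 0.06. Top2a was chosen after its values were seen.

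Interferon response genes ran the other way. At day 4, 33 of 36 were higher with cluster C, with a median of 0.45, and at day 8, 31 were lower, with a median of -0.26. Usp18 was at 6.14 with cluster B and 7.09 with cluster C at day 4 and at 6.85 and 6.89 at day 8. Bst2 was at 6.08 and 7.03 and at 7.05 and 6.87, and Rtp4, given above, behaved alike: the day 4 array of cluster B was low, and the other 3 were near one another. Ifit3 was at 5.59 and 6.12 at day 4 and at 6.23 and 5.35 at day 8. Without SKO the medians were -0.24 and 0.27, with signs opposite to those with SKO on both days.

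Among other lists, glycolysis genes lay slightly higher with cluster C, with medians of 0.01 and 0.14 and 9 of 21 above 0 on both days. The glucose transporter gene Slc2a3 was at 6.25 and 7.26 with cluster B and at 6.53 and 9.19 with cluster C, and the lactate exporter gene Slc16a3 at 5.33 and 7.05 against 6.17 and 7.52. The enzyme genes Ldha (10.50 and 11.14 against 10.56 and 11.18) and Aldoa (10.38 and 11.40 against 10.49 and 11.43), chosen after their values were seen, were close. Cholesterol synthesis genes had medians of -0.13 and -0.09 over 20 members, with Nsdhl lowest (7.14 and 6.71 against 6.82 and 6.36). Genes of the p53 pathway and senescence had medians of -0.05 and 0.09, from Fas (6.60 and 6.36 against 6.20 and 6.11) to Trp53inp1 (8.31 and 8.23 against 8.67 and 8.64). DNA methylation and chromatin genes had medians of -0.09 and 0.16. Their 4 highest, Dnmt3l, Utf1, Dnmt3b and Tet1 (5.11 and 5.55 against 5.31 and 6.45), are in the pluripotency list too, and Smarcd3 was lowest (6.0 and 5.97 against 5.51 and 5.72).

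**Figure D5:**
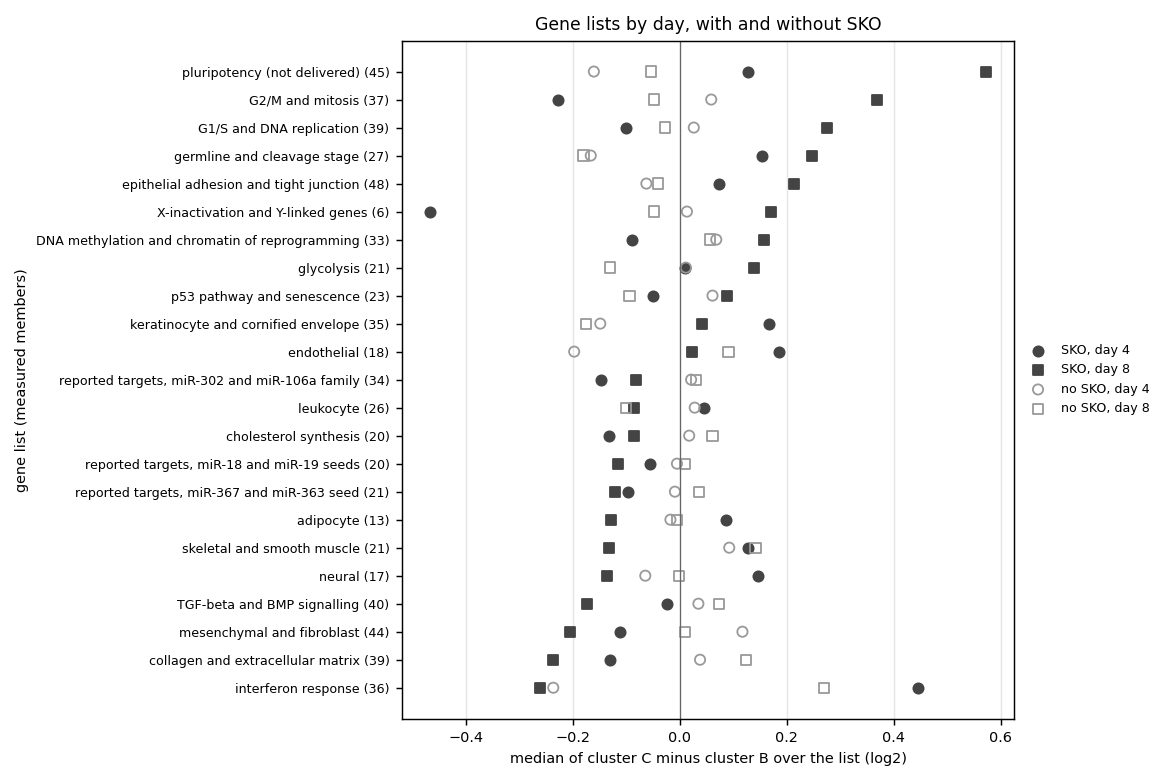
Median log2 difference between cluster C and cluster B over each gene list, at day 4 (circles) and day 8 (squares), with SKO (filled) and without (open). Filled squares run from 0.57 for pluripotency genes to -0.26 for interferon genes, and the filled circle and square lie on opposite sides of 0 for the G1/S, G2/M and interferon lists.

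Markers of other cell types were read over their whole lists, since feeder cells and other fibroblast-pool cells could move with the groups. At day 4 and day 8 the medians were 0.04 and -0.08 for 26 leukocyte genes, 0.19 and 0.02 for 18 endothelial genes, 0.13 and -0.13 for 21 muscle genes, 0.09 and -0.13 for 13 adipocyte genes and 0.15 and -0.14 for 17 neural genes. The median level of each of these lists on each array with SKO lay between 4.28 and 4.94, under the median level of 5.32 over all genes. Most members were dim, and the day 4 median over the 4985 dimmest genes was 0.16. Of the defining markers, Ptprc of leukocytes was at 3.56 to 4.00, Pecam1 and Cdh5 of endothelium at 3.59 to 4.28, and Adipoq of fat cells at 2.23 to 2.89. Laptm5 (7.03 and 6.67 against 7.50 and 7.40) and Lyz2 (6.49 and 6.61 against 6.07 and 6.35) were the leukocyte genes above that median among those named.

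The 3 Y-linked genes named here differed between the clusters on both days, in opposite directions. Eif2s3y was at 7.05 with cluster B and 6.26 with cluster C at day 4 and at 6.80 and 7.08 at day 8. Kdm5d was at 5.68 and 5.26 at day 4 and at 5.33 and 5.78 at day 8, and Uty at 6.10 and 5.78 and at 5.76 and 6.14. The X-inactivation transcript Xist was at 7.44 and 7.37 at day 4 and at 7.40 and 7.22 at day 8. These 3 Y-linked genes moved with the proliferation lists and against the interferon list, in that they were lower with cluster C at day 4 and higher at day 8, and their part in those results was not tested.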

How the data were processed

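For 28853 probe sets and 12 arrays, the authors deposited values on a log2 scale, read as such from their range of 0.916 to 14.03; RMA and Partek are named, without versions, in the submitters' processing notes. RMA pulls arrays to a common distribution, so a shift common to most genes is hidden. Of the probe sets, 21789 had 1 gene in the platform annotation, 1621 several and 5443 none, and those with 1 were used. Of 999 genes with several probe sets, the one with the highest mean over the 8 arrays with a cluster was kept, giving 19938 genes; 21698 Entrez identifiers matched RefSeq of GRCm38.p6. No array was a copy of another (smallest mean absolute difference 0.195), and the 4 arrays had medians between 4.98 and 5.05. Such values carry no counts, and precision is limited by the number of arrays.

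limma 3.58.1 in R 4.3.3 was fitted to the 8 arrays with a cluster (arm, day within arm, cluster within arm; 6 coefficients, 2 residual degrees of freedom, 5.45 prior ones, median SD 0.153). The contrast is the mean over days of cluster C minus cluster B with SKO, called at an adjusted p under 0.05. The fit was tested on simulated data. Arrays without SKO leave its estimate as it is. Alternatives were other array sets, no day term, a mean-variance trend with robust shrinkage, quantile normalization, equal medians, dim genes filtered out, probe sets of a gene averaged or all kept, a tested minimum of 1.5-fold, and each array left out.

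Named genes were every called gene, 12 higher and 12 lower with cluster C by the smaller of the 2 days' differences, 10 and 10 at day 8, 5 and 5 at day 4, microRNA genes of both groups, the 4 members at either end of a described list, the delivered factors, Myc and Tgfbr2. Predicted, receptor-family and small RNA genes other than microRNAs, and genes at or below the median level in the higher cluster, were left out of the ranks. Members and lists were chosen with earlier results of these data known. Tables and figures were made in Python 3.11.15 (pandas 2.3.3, numpy 2.4.6, matplotlib 3.10.9).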

Additional observations from a re-analysis of the deposited data

Results flagged for a closer look

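Medians of several lists lay on opposite sides of 0 with and without SKO, and the difference was not tested. As the median with SKO minus the median without, it was 0.52 for pluripotency, 0.36 for germline and cleavage stage, 0.21 for epithelial, 0.23 for keratinocyte, -0.27 for extracellular matrix, -0.25 for mesenchymal, -0.17 for TGF-beta and BMP, -0.13 for cholesterol synthesis and -0.14 for AAGUGC target genes. Over all genes the mean differences of the arms had r = -0.146 and the same sign in 43.2%, and the 4985 dimmest genes had day 4 medians of 0.16 with SKO and -0.11 without. Over members above the median level, the medians with and without SKO were 0.28 and -0.01 for pluripotency and 0.10 and -0.02 for epithelial genes. For keratinocyte genes they were -0.02 and -0.18, of the same sign. They were -0.18 and 0.09 for extracellular matrix, -0.16 and 0.09 for mesenchymal and -0.12 and 0.08 for TGF-beta and BMP genes. All genes above the median level had medians of -0.04 with SKO and 0.03 without, also of opposite sign. A list of bright genes can thus change sign between the arms with no difference of its own.

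Other lists had medians of opposite sign at day 4 and day 8 with SKO, which sets 1 array against 1 on each day, and the difference was not tested. As day 8 minus day 4, it was 0.38 for G1/S and replication, 0.60 for G2/M and mitosis, 0.14 for p53 and senescence, -0.71 for interferon response, 0.25 for DNA methylation and chromatin, -0.13 for leukocyte, -0.26 for muscle, -0.22 for adipocyte, -0.28 for neural and 0.64 for the X-inactivation and Y-linked genes. At day 4 the median was 0.16 over the 4985 dimmest genes and -0.08 over all genes above the median level. At day 8 these medians were -0.01 and -0.02. The day 4 medians of the leukocyte, muscle, adipocyte and neural lists were no higher than that of the dimmest genes. The day 4 median of the p53 list (-0.05) was not below that of the bright genes.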

How the results depend on the processing

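The estimates of the microRNA genes do not depend on which other arrays enter, and their calls do. Against 0 called genes in the fit of 8 arrays, 6 were called by the 4 arrays alone, 4 by all 12, 4 with a trend and robust shrinkage (Mir302a, Mir363, Mir367 and Tomm5) and 4 with the filter on dim genes. Leaving out 1 array gave between 0 and 6: each of the 4 arrays without SKO, left out, gives the same fit as the 4 arrays alone, and each of the 4 with SKO gave 0. Without SKO 0 became 3 with a trend (Id2, Ifna14 and Pou5f1) and between 0 and 2 with 1 array left out, the 2 being Mir302b and Mir302d without either day 8 array. The difference between the arms became 1 with a trend. Counts past 2-fold became 24 at day 8 and 20 at day 4 with the filter on dim genes, and 621 and 1105 at a log2 difference of 0.58. Myc turned from -0.01 to 0.0215 with quantile normalization, and leaving out 1 array with SKO gave -0.0924 (day 8) or 0.0713 (day 4). Sox2 turned from 0.71 to -0.088 without either day 8 array with SKO, and was 1.51 without either day 4 one. Medians of the pluripotency (0.13 to 0.57), epithelial (0.07 to 0.21), matrix (-0.24 to -0.13) and mesenchymal lists (-0.20 to -0.11) kept their sign in 9 alternatives, among them their members above the median level, an alternative chosen after seeing the data. The keratinocyte median turned from 0.07 to -0.02 there. The fit of 8 arrays pairs the clusters by day; without the day term the count was also 0 (385 by unadjusted p). With 1 array per condition, a difference on 1 day has no replicate.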
